A study of Mus musculus with 2 samples.

Results

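Nerve and Schwann cell genes are represented here by 6 genes, Mbp, Sox10, Ngfr, Gap43, Uchl1 and Prph, taken by symbol from the 22740 genes of the deposited expression table. All 6 were found, each on 1 row, in the whole uterus of 2 C57BL/6 mice on day 4 of pregnancy. Both libraries form 1 group, titled WT in the labels, with no treatment and no other genotype named, and the animals' age is not given in the sources used here. Each library came from a separate mouse, per the series' design text, and uterus 1 and uterus 2 stand here for the libraries that the labels number so. Values are the authors' RPKM, that is reads scaled to the length of the transcript and to the size of the library, so levels can be set side by side between genes of different length.

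The uterus is supplied by sympathetic, parasympathetic and sensory nerve fibres that run mainly in the myometrium and along blood vessels. The cell bodies of these neurons lie in ganglia outside the organ, so most neuronal messenger RNA stays outside it, whereas the Schwann cells that wrap the fibres have their nuclei within the tissue. Myelinating Schwann cells sheathe large axons and nonmyelinating Schwann cells hold bundles of thin ones, and the fibres of the uterus are mostly thin. Of the 6 genes, Sox10 (transcription factor of the Schwann lineage and of melanocytes), Mbp (myelin basic protein) and Ngfr (low-affinity neurotrophin receptor) are glial markers, and Ngfr is also made by some perivascular and mesenchymal cells. Gap43 (growth-cone protein), Uchl1 (neuronal ubiquitin hydrolase) and Prph (the peripheral-neuron intermediate filament peripherin) are classed as axonal or neuronal. In whole-organ RNA, fewer cells of a type and less RNA per cell cannot be told apart.

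The reads recovered from the RPKM values summed over genes to 3790556 for uterus 1 and 4209863 for uterus 2, and the values are scaled to totals of 3834174 and 4256101. The 6 genes together held 623 and 564 of them. All 8 uterine genes of a check list, among them Pgr, Esr1 and Hoxa10, were at or above 1 RPKM in both libraries, and so were all 6 smooth muscle genes, led by Acta2 at 622 ± 43.0 RPKM (SD, n = 2).

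RefSeq promoter sequences of build GRCm38.p6 were at hand for 3 of the 6 genes, Ngfr, Prph and Uchl1. They are shown for that reason alone, and each window ends at the base before the transcript start that the deposited table uses. Each 250-base window matched the NCBIM37 genome (mm9) once, at chr11:95449013-95449262 on the minus strand for Ngfr, chr15:98885355-98885604 on the plus strand for Prph and chr5:67067110-67067359 on the plus strand for Uchl1. In each window the distance from its end to the deposited start was 0 bases. The sequences read 5′ to 3′, and capitals mark matches on either strand to TATAAA, the core of a TATA box, or to GGGCGG, the core of a GC box.
Ngfr: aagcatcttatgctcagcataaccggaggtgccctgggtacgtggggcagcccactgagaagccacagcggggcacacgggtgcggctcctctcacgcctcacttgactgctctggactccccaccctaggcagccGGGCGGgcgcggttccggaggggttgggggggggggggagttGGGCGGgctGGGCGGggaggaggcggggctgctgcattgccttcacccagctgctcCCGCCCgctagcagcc
Prph: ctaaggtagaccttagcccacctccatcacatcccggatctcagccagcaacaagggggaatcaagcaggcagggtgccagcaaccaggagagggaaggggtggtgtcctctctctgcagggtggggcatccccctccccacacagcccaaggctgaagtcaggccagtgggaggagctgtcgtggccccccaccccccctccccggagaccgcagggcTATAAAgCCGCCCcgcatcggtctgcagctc
Uchl1: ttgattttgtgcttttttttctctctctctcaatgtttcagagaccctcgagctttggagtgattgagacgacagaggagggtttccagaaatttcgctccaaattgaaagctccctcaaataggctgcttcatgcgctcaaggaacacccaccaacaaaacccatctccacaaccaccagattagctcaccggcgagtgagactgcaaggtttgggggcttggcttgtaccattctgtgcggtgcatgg

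The Ngfr window held 4 GC boxes and no TATA box, and its GC content was 70.4%. The Prph window held 1 TATA box, which begins 31 bases before the start, and 1 GC box, with a GC content of 65.2%. The Uchl1 window held neither motif and had a GC content of 48.8%. Among 32851 RefSeq promoter windows of the same length, the median GC content was 52.4%, 12.4% held TATAAA and 32.7% held GGGCGG. No window of the 3 held CCAAT (in 33.8% of all windows) or the SOX-type motif ACAAAG (in 16.5%). Overlapping matches were counted, and these letters describe the sequence only.

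Ngfr and Gap43 were the only members above 10 RPKM, Mbp and Uchl1 lay near 2 RPKM, and Sox10 and Prph lay below 1 RPKM on a few reads each. At the detection threshold of 1 RPKM in both uteri, 4 of the 6 genes were detected, against 58.4% of all genes in the table. The median of the 6 means was 1.84 RPKM, and that of all genes was 3.23 RPKM.

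**Figure D1:**
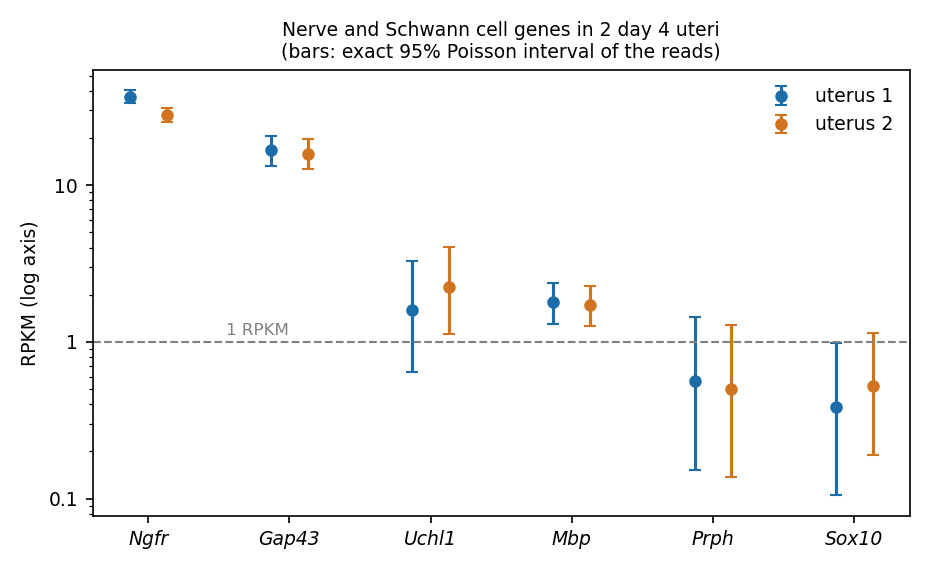
RPKM (log axis) of the 6 genes in uterus 1 (blue) and uterus 2 (orange), ordered by mean, with bars for the exact 95% Poisson interval of the reads. Ngfr and Gap43 stand above 10 RPKM in both uteri, whereas both points of Prph and of Sox10 lie under the dashed line at 1 RPKM.

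Ngfr (NM_033217, NCBIM37 chromosome 11, 95430140 to 95449012, minus strand) encodes the receptor that binds all neurotrophins with low affinity and pairs with the Trk receptors or with sortilin. Uterus 1 held 36.7 RPKM and uterus 2 held 28.0 RPKM, or 32.4 ± 6.14 RPKM (SD, n = 2), above 90.9% of all genes. The values rest on 479 and 406 reads over a transcript length of 3401 bases. The 2 values are apart by more than their counting error, since the Poisson intervals ran from 33.5 to 40.2 RPKM and from 25.4 to 30.9 RPKM.

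Sox10 (NM_011437, chromosome 15, 78985343 to 78994920, minus strand) drives specification and myelination of Schwann cells. Uterus 1 held 0.385 RPKM and uterus 2 held 0.520 RPKM, or 0.452 ± 0.0955 RPKM (SD, n = 2), on 4 and 6 reads over 2713 bases. Both libraries thus held reads of this lineage factor, but the Poisson intervals were wide, from 0.105 to 0.985 RPKM and from 0.191 to 1.13 RPKM. Ngfr exceeded Sox10 95.5-fold in uterus 1 and 54.0-fold in uterus 2 per length.

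Mbp (NM_010777, chromosome 18, 82644515 to 82755029, plus strand) encodes a major protein of compact myelin. It lay at 1.79 and 1.71 RPKM, or 1.75 ± 0.0510 RPKM (SD, n = 2), on 46 and 49 reads. The 2 uteri were close in value, with Poisson intervals from 1.31 to 2.38 RPKM and from 1.27 to 2.27 RPKM. The gene also makes the longer golli transcripts from an upstream start, which are known from immune cells as well as from the nervous system, and the row covers both kinds. Its recovered length of 6718 bases is longer than any of the 16 GENCODE M1 transcripts of the gene, the longest of which has 4797 bases. Of these, 12 start at least 79.3 kb downstream of the deposited start, and the 6 that also end at the deposited end are 2063 to 2186 bases long. Over 2186 bases the same reads would give 5.49 and 5.27 RPKM, 3.07 times the deposited values, so the level of Mbp relative to the other genes depends on which transcripts the reads came from, which the table does not show.

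Gap43 (NM_008083, chromosome 16, 42248674 to 42340764, minus strand) encodes a membrane protein of growing and regenerating axon endings that Schwann cells can also make. It was the second highest of the 6, at 16.6 and 15.9 RPKM, or 16.3 ± 0.528 RPKM (SD, n = 2), on 83 and 88 reads over 1301 bases. The values lay within each other's counting intervals, 13.3 to 20.6 RPKM and 12.7 to 19.6 RPKM, and above those of 78.7% of all genes.

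Uchl1 (NM_011670, chromosome 5, 67067360 to 67078473, plus strand) encodes a ubiquitin hydrolase that is abundant in neurons and is widely used to stain nerve fibres. Uterus 1 held 1.59 RPKM and uterus 2 held 2.25 RPKM, or 1.92 ± 0.468 RPKM (SD, n = 2). Only 7 and 11 reads stand behind these values, and the Poisson intervals overlap, from 0.640 to 3.28 RPKM and from 1.12 to 4.03 RPKM. An annotated gene on the other strand, Gm16832, shares up to 202 bases of exon with Uchl1, and the use of strand in counting is not given in the sources used here, so part of these reads could belong to it. None of the other 5 genes shared exon bases with another GENCODE M1 gene.

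Prph (NM_001163589, chromosome 15, 98885605 to 98889409, plus strand) encodes peripherin, an intermediate filament of peripheral axons. It lay at 0.559 and 0.504 RPKM, or 0.532 ± 0.0392 RPKM (SD, n = 2), on 4 reads in each uterus over 1865 bases. Since 1 read was worth 0.140 RPKM in uterus 1 and 0.126 RPKM in uterus 2, the small SD says little, and the counting intervals ran from 0.152 to 1.43 RPKM and from 0.137 to 1.29 RPKM.

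In order of mean level the genes ran Ngfr, Gap43, Uchl1, Mbp, Prph, Sox10. Ngfr exceeded Gap43 2.21-fold in uterus 1 and 1.76-fold in uterus 2, and Gap43 exceeded Uchl1 10.5-fold and 7.05-fold. Uchl1 and Mbp overlapped in range and changed places between the uteri, as did Prph and Sox10, so neither pair was separated at the deposited values. Over 2186 bases, however, Mbp would lie above Uchl1 in both uteri. At the deposited length Mbp lay 3.19-fold and 3.40-fold above Prph, with Prph on 4 reads in each uterus and a slight overlap of the separate counting intervals. Uchl1 and Mbp lay above Prph and Sox10 in both uteri. The separate counting intervals of Uchl1, on 7 and 11 reads, however overlapped those of Prph and of Sox10 in each uterus. Those of Mbp did not overlap those of Sox10.

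The 2 libraries were compared gene by gene with a two-sided exact binomial test on the recovered reads, adjusted by Benjamini-Hochberg over 15132 genes. This test compares these libraries, not conditions, and its error is counting error alone. It called 1 of the 6 genes, against 4.74% of all genes tested. Ngfr was higher in uterus 1, with a log2 ratio of uterus 2 over uterus 1 of -0.39 (exact 95% interval -0.58 to -0.20) and an adjusted exact p of 0.00317. Genes called as higher in uterus 1 made up 2.54% of those tested. Among the 6841 genes with a mean of 10 to 100 RPKM, 7.48% had a log2 ratio at least as large in size as that of Ngfr, after a pseudocount of 0.1 RPKM.

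The other 5 genes did not pass the test, and their intervals show how large a difference these reads leave possible. Gap43 had a log2 ratio of -0.07 with an interval from -0.52 to 0.38, and Mbp one of -0.06 from -0.67 to 0.55. Those 2 genes were therefore held to less than a 2-fold difference in either direction at this depth. The intervals were wider for Uchl1 (0.50, from -0.997 to 2.11), Sox10 (0.43, from -1.64 to 2.70) and Prph (-0.15, from -2.58 to 2.27). The adjusted exact p of these 5 genes lay between 0.854 and 1. With a mean of 1 RPKM or more, 0 of the 4 genes at that level were at least 2-fold apart, against 2.6% of all such genes.

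**Figure D2:**
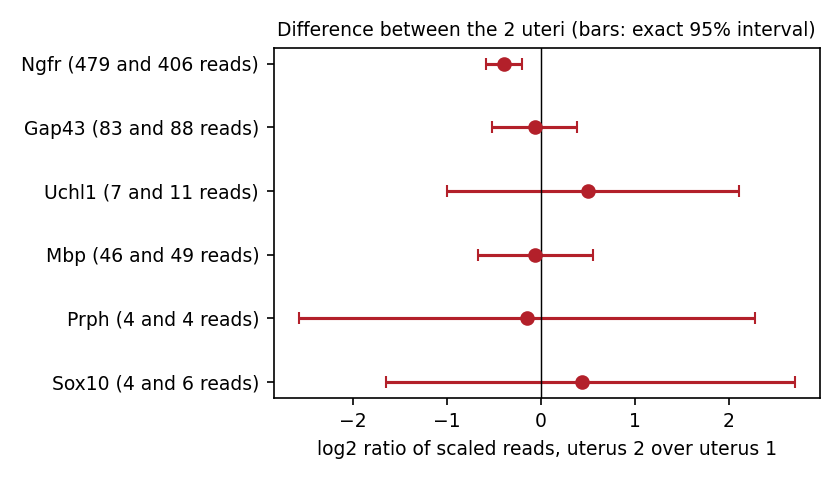
Log2 ratio of the scaled reads, uterus 2 over uterus 1, for the 6 genes, with the exact 95% interval as bars and the reads of uterus 1 and uterus 2 beside each name. The interval of Ngfr lies wholly below 0 and the other 5 intervals include 0.

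**Figure D3:**
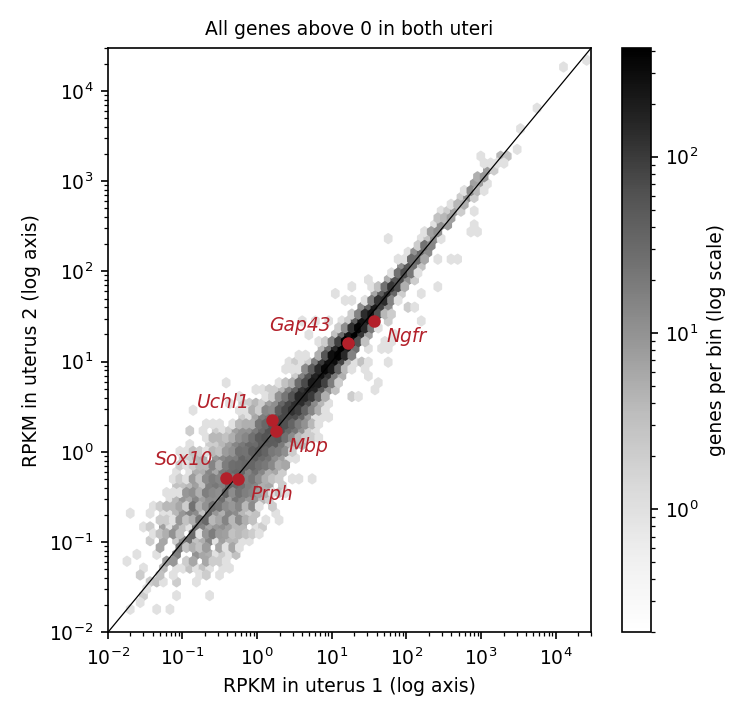
RPKM in uterus 2 against uterus 1 (both log axes) for all genes above 0 in both uteri, with the number of genes per bin in grey, the 6 genes in red and the line of equal values in black. The genes with few reads, Sox10 at 4 and 6 reads and Prph at 4 and 4, sit in the broad low end of the cloud, and Ngfr sits just below the line.

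The genes that act with the 6 were taken from 8 lists of 95 genes in all. At 1 RPKM in both uteri, 45 of these 95 genes were detected, or 47.4%, against 58.4% of all genes in the table. Of the 95, 13 were listed at 0 in both. The neurotrophin (61.1%) and myelin (57.1%) shares lay near that of all genes, the relatives above it (90%) and the other lists below it. The binomial test called 3 of the 67 list genes with enough reads, Ednrb, Gpr126 and Vim, a share near the 4.74% called among all genes.

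Among ligands and receptors around Ngfr, 11 of 18 neurotrophin and GDNF family genes were detected, with a median of 1.55 RPKM. Ngfrap1, an adaptor of the receptor's intracellular part, lay at 51.7 ± 3.62 RPKM (SD, n = 2) and Sort1, the sortilin co-receptor, at 22.5 ± 2.17 RPKM. Sort1 lay below Ngfr in both uteri, at 0.571 and 0.857 of its level. Of the high-affinity receptors, Ntrk2 lay at 8.42 ± 1.24 RPKM and Ntrk3 at 0.530 ± 0.107 RPKM. Ngfr thus exceeded Ntrk2 3.95-fold and 3.72-fold. Of the ligands, Ntf3 lay at 0.674 and 0.455 RPKM, and Bdnf at 0.0475 and 0.0856 RPKM on 1 and 2 reads. Erbb2, the partner of Erbb3 in reading axonal neuregulin, lay at 8.83 ± 1.39 RPKM, and Nrg1 itself at 1.82 ± 0.0514 RPKM.

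Among genes of myelin and myelinating Schwann cells, 8 of 14 were detected, with a median of 1.43 RPKM. Pmp22 (65.8 ± 7.19 RPKM), Cnp (24.9 ± 3.19 RPKM), Pllp (18.4 ± 0.120 RPKM) and Mal (17.8 ± 1.18 RPKM) were highest, and all of these are also made outside myelin, in fibroblasts or epithelia. Mag, an adhesion protein of the inner myelin layer, lay at 0.322 and 0.194 RPKM on 3 and 2 reads. The Schwann cell genes Prx (1.61 ± 0.318 RPKM), Drp2 (1.44 ± 0.0809 RPKM) and Egr2 (1.43 ± 0.341 RPKM) lay close to Mbp at 1.75 RPKM, and Pou3f1 and Fa2h were listed at 0 in both uteri.

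Of the Schwann lineage and nonmyelinating genes, 7 of 15 were detected, with a median of 0.809 RPKM. Markers of narrow use lay on both sides of Sox10 in level. S100b lay at 0.628 and 0.990 RPKM, Gfra3 at 0.393 and 0.472 RPKM and Cdh19 at 0.342 and 0.462 RPKM, on 3 to 7 reads each. Dhh, a hedgehog ligand of Schwann cells, was higher at 1.76 and 1.29 RPKM on 16 and 13 reads, Foxd3 had 1 read in uterus 2 alone, and Fabp7 was listed at 0 in both. Erbb3, the neuregulin receptor of Schwann cells and of epithelia, lay at 6.88 ± 0.725 RPKM, 19.2-fold and 12.3-fold above Sox10. The sodium channel gene Scn7a lay at 6.62 ± 0.0121 RPKM. Ednrb, the endothelin receptor that endothelium and smooth muscle also use, was higher in uterus 1 at 33.8 against 26.9 RPKM, with a log2 ratio of -0.33 and an adjusted exact p of 0.00748. Gpr126, which Schwann cells need for myelination, was also higher in uterus 1, at 6.37 against 4.41 RPKM, with a log2 ratio of -0.52 and an adjusted exact p of 0.0481.

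Genes of the neuronal cytoskeleton and synapse had a median of 0.220 RPKM, and 5 of 17 were detected. Map2 (40.0 ± 1.71 RPKM) and Map1b (18.4 ± 0.903 RPKM), microtubule proteins that other cells make too, were well above the rest. Next came Stmn2, a regulator of axonal microtubules, at 1.78 and 3.33 RPKM on 13 and 27 reads, and Gap43 exceeded it 9.34-fold and 4.77-fold. The neurofilament genes Nefl and Nefm were listed at 0 in both uteri, and Tubb3, the neuronal tubulin, lay at 0.303 and 0.136 RPKM on 2 and 1 reads. Rbfox3, which marks neuronal nuclei, lay at 1.31 ± 0.0194 RPKM.

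Transmitter genes were mostly below the threshold. In the sympathetic list 2 of 8 were detected: Slc6a2, the noradrenaline transporter, at 31.5 ± 0.571 RPKM on 744 and 805 reads, and Slc18a2, the vesicular monoamine transporter, at 2.57 ± 0.730 RPKM. Th, which makes the precursor of noradrenaline, was listed at 0 in both uteri, Dbh lay at 0.229 and 0.206 RPKM on 2 reads in each, and Npy at 0.479 and 0.431 RPKM on 1 read in each. In the sensory list 2 of 8 were detected, among them Calca at 2.98 ± 0.250 RPKM, and Tac1, Trpv1, Scn9a and Scn10a were listed at 0. Which cells the reads of Slc6a2, Slc18a2 and Calca came from was not tested, so these levels are not those of nerve alone by proof. P2rx3 and Scn11a, channels of pain fibres, lay at 0.187 and 0.280 RPKM and at 0.0447 and 0.0403 RPKM. In the cholinergic and nitrergic list 1 of 5 was detected, Nos1 at 1.13 and 2.04 RPKM. Chat lay at 0.464 and 0.418 RPKM and Slc18a3 at 0.432 and 1.07 RPKM. Slc5a7, the choline transporter, had 1 read in uterus 2 and was listed at 0 in uterus 1. Slc18a3 brought the count to 2 when uterus 2 was taken alone.

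**Figure D4:**
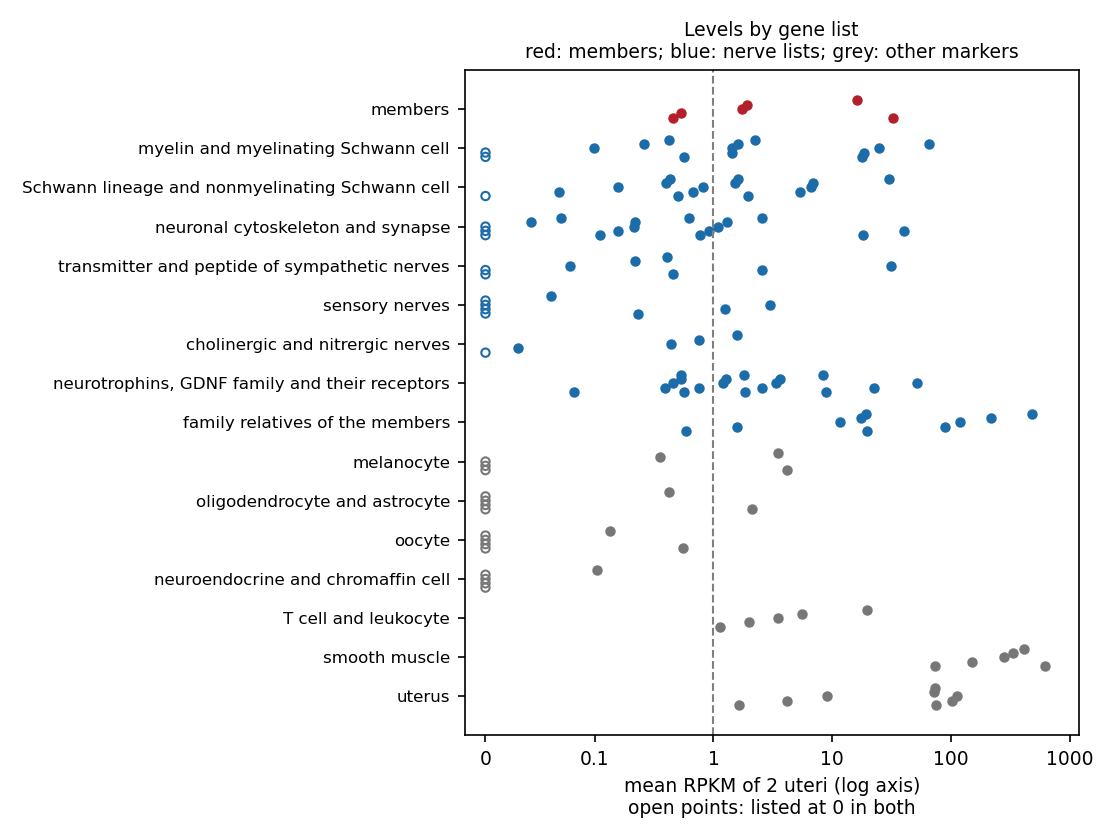
Mean RPKM of the 2 uteri (log axis) for each gene of the 6 members (red), the 8 nerve lists (blue) and 7 marker lists of other cell types and tissue (grey), with the dashed line at 1 RPKM and open points for genes listed at 0 in both. The neuronal list has a median of 0.220 RPKM and lies mostly left of the line, and no gene of the sensory or of the cholinergic and nitrergic list reaches the level of Gap43 at 16.3 RPKM or Ngfr at 32.4 RPKM.

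Close relatives of the members were in most cases far higher than the members themselves, and 9 of 10 were detected. Vim and Des, intermediate filaments of mesenchyme and muscle related to peripherin, exceeded Prph 799-fold and 386-fold in uterus 1 and 1035-fold and 434-fold in uterus 2, folds that rest on 4 reads of Prph in each. The deubiquitinases Uchl3 (19.4 ± 2.89 RPKM), Uchl5 (11.7 ± 1.97 RPKM) and Bap1 (19.7 ± 1.83 RPKM) exceeded Uchl1 10.9-fold, 6.46-fold and 11.5-fold in uterus 1 and 9.53-fold, 5.80-fold and 9.31-fold in uterus 2. Reads of Uchl3 are uncertain, since Uchl4, at 1.35 and 3.64 RPKM, is a near-identical copy. Of the membrane proteins that resemble GAP43 in function, Basp1 overlapped Gap43 in range at 17.4 ± 2.39 RPKM, whereas Marcks at 89.6 ± 6.23 RPKM and Marcksl1 at 119 ± 11.1 RPKM were higher. Sox9 lay at 1.56 ± 0.433 RPKM and exceeded Sox10 3.27-fold and 3.60-fold, and Sox8 lay at 0.783 and 0.392 RPKM. Vim was higher in uterus 2, at 522 against 447 RPKM, with an adjusted exact p of 1.53e-08 and a log2 ratio of 0.22.

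Markers of other cells that use these genes were read in the same libraries. Of the melanocyte list, which shares Sox10, 2 of 6 were detected, with a summed level of 8.47 and 7.58 RPKM, and of its defining genes Mlana, Dct and Tyrp1 were listed at 0. Tyr, the pigment enzyme tyrosinase, which is as defining, lay at 4.10 and 2.91 RPKM on 52 and 41 reads, and Mitf, a factor of melanocytes and of mast cells and macrophages, at 3.88 and 4.45 RPKM. The part of such cells in the Sox10 value was not tested. The neuroendocrine list, which shares Uchl1, had 0 of 5 detected, summed to 0.210 and 0 RPKM, and had Chga, Chgb, Pnmt and Insm1 listed at 0. The oocyte list, which also shares Uchl1, had 0 of 6 detected, summed to 0.723 and 0.660 RPKM, with Zp2, Zp3, Dppa3 and Figla listed at 0. Of the oligodendrocyte and astrocyte list 0 of 6 were detected in both uteri, with Mobp, Olig1, Olig2 and Opalin listed at 0. Of the T cell and leukocyte list, which bears on golli transcripts of Mbp, 3 of 5 were detected, led by Ptprc at 19.7 ± 2.75 RPKM, with none at 0 and a summed level of 28.5 and 35.2 RPKM. The part of leukocytes in the Mbp value was not tested.

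The genes nearest in level over both libraries, among 85 nerve list genes, were named by the smallest distance in log2 of RPKM after a pseudocount of 0.1. For 5 of the members they were Ednrb for Ngfr (distance 0.13), Mal for Gap43 (0.18), Nrg1 for Mbp (0.08), Gfra3 for Sox10 (0.12) and Sox2 for Prph (0.09). With 2 libraries this likeness is one of level, and 16 to 576 other genes of the whole table lay nearer to the same member.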

How the data were processed

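RNA was sequenced from 2 whole uteri on TruSeq libraries, per the labels' protocols. The deposited values are RPKM made by the authors, per the series' design text. The submitters' processing notes name TopHat, edgeR and mm9, while versions, the annotation and the use of strand are not given in the sources used here. The members and lists were chosen with earlier results of these data known.

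Reads were recovered from the RPKM values with Python 3.11.15, pandas 2.3.3 and scipy 1.17.1. Short entries under 200 bases gave the value of 1 read, with scaling totals of 3834174 and 4256101. For 17426 of 17426 genes above 0, the ratio of the libraries matched whole reads (relative tolerance 1e-09) with a whole transcript length (tolerance 0.0001 bases, and in proportion above 1 kb). Among the factors that allow this, the one weighed by smallness and nearness to a GENCODE M1 length (scale 0.05 in the natural log) was taken; for the 6 members it was the smallest possible. Lengths were lacking for 1202 genes. Recovery and test were tested on simulated data.

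Genes with at least 6 reads were tested by an exact binomial test with Benjamini-Hochberg adjustment, called under 0.05. Intervals are at 95% and hold the counting error of the reads alone. Reads copied by PCR are not separate molecules, so even that error can be understated. Log2 ratios beside an interval come from the reads, those of companion genes from RPKM plus 0.1. An exact 0 can be a failed estimate and is given as listed at 0. Named genes were the members, and of each list the 4 highest and the first 3, of the relatives all; other names were chosen after their values were seen. Some genes that the rule names are not reported here. Alternatives covered the detection threshold, TPM scaling, pseudocount, centring, smallest reads, filters, each library alone and the length of Mbp.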

Additional observations from a re-analysis of the deposited data

How the results depend on the processing

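All 30 alternatives for the difference between the uteri left the direction and the call of each of the 6 genes as they were. This was largely fixed in advance. A pseudocount cannot change the direction or the call. Centring cannot change the call and took off a median log2 ratio of only 0.00067. The settings with the smallest reads and with at least 1 read left the members' ratios unchanged and altered only the adjustment. The count of members 2-fold apart stayed at 0 in 4 of 4. A threshold of 2 RPKM in both uteri left 2 members detected, Ngfr and Gap43, and lowered the list counts to 5 for myelin, 4 for Schwann lineage, 2 for neuronal, 1 for sensory, 0 for cholinergic and nitrergic, and 7 for neurotrophin genes. Both 0.5 RPKM and TPM gave 5 members and 7 neuronal genes, and they gave 9 and 10 Schwann lineage genes and 12 and 14 neurotrophin genes. Rescaling to TPM is another unit and moved the levels by construction, to 76.7 for Ngfr, 38.5 for Gap43, 4.55 for Uchl1, 4.14 for Mbp, 1.26 for Prph and 1.07 for Sox10, and it gave 2 cholinergic and nitrergic genes. Among marker counts, the oligodendrocyte and astrocyte list went from 0 to 1 with uterus 2 alone, at 0.5 RPKM and under TPM, and the T cell and leukocyte list from 3 to 5 under TPM. Dividing the reads of Mbp by 2186 bases, chosen after seeing the data, gave 5.38 RPKM. Taking each library alone gave 1 to 2 cholinergic and nitrergic genes and put 2 members in another place in the order, Uchl1 and Mbp in uterus 1, Prph and Sox10 in uterus 2. Either library alone lies within 1 SD of the mean by construction. Depth limits Sox10, Prph and Uchl1 to 18 or fewer reads in sum. No paired analysis was possible because both libraries belong to 1 group.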

Other observations

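The genes named here were singled out after their values were seen. Aqp4, a water channel of astrocytes and some epithelia, lay at 0.616 and 3.61 RPKM on 2 and 13 reads and did not pass the exact binomial test (adjusted p 0.119). Cd2, a T and natural killer cell surface protein, was higher in uterus 2, at 3.49 against 0.456 RPKM on 17 and 2 reads, with an adjusted exact p of 0.0249. Phox2a, a factor of autonomic neurons, had 5 reads in uterus 1 and was listed at 0 in uterus 2.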
